A study of Homo sapiens with 12 samples.

Results

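The 35 genes described here are a list given by name that covers glycolysis and the response to low oxygen: glucose transporters and hexokinases, the enzymes of the glycolytic chain, the enzymes that set its rate and the fate of pyruvate, the oxygen-sensing genes HIF1A, EGLN1 and EGLN3, and 10 genes known as outputs of the hypoxia response. Each of the 35 matched 1 identifier among the 63677 in the count tables. Of the 35 genes, 32 passed the filter on low counts and were tested, and LDHB, EGLN3 and CA9 did not.

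The measurements were RNA-seq counts of MiaPaca2, an established human pancreatic ductal adenocarcinoma line labelled wild type, in 12 libraries. All cells were grown in DMEM/F12 medium with fetal bovine serum and received DMSO vehicle (Con), 1 µM CPT, 2 mM GTA with 1 µM 5-Aza (GTA+5-Aza), or all of these (CPT+GTA+5-Aza) for 24 h, with 3 libraries in each group. CPT is calcipotriol, a Vitamin D analogue, and 5-Aza is an inhibitor of DNA methyltransferases. GTA is glyceryl triacetate, a precursor of acetate that the paper reports to raise acetyl-CoA and histone acetylation in these cells. Cells given GTA+5-Aza are called epigenetically primed below and the others unprimed. GTA and 5-Aza were given only together, so their separate effects cannot be told apart, and 1 line was studied.

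Glycolysis converts glucose to pyruvate, and lactate dehydrogenase then regenerates the cofactor that the chain consumes. Tumour cells, including those of pancreatic cancer, commonly run this chain at a high rate even where oxygen is present. When oxygen is low, the prolyl hydroxylases EGLN1 and EGLN3 no longer mark the HIF1A protein for destruction, and HIF1A then binds short ACGTG or GCGTG elements near target genes, among them many glycolytic enzymes, VEGFA, ADM and CA9. HIF1A is controlled largely at the protein level, which RNA counts do not show.

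Total counts ran from 16162490 to 21224665 per library, and the 35 genes took 1.61% to 1.70% of them. Values are CPM, which are counts divided by the TMM-scaled library size. A library with no read of a gene still allows for a true level of up to 3 counts, or 0.143 to 0.184 CPM, for counting error only. Of the markers checked, the epithelial keratins KRT8 and KRT18, the mesenchymal gene VIM and the collagen gene COL1A2, which fibroblasts also express, were abundant, at no less than 1409, 644, 5308 and 689 CPM. KRT19 ran from 28.4 to 41.4 CPM, whereas EPCAM reached at most 1 count, the fibroblast markers DCN and LUM at most 2 and 0, and the leukocyte and endothelial markers PTPRC, CD3E, CD68, PECAM1 and VWF at most 11. The acinar markers PRSS1, CPA1 and CELA3A and the islet markers INS and GCG had 0 counts in every library.

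Some of these markers moved with priming. VIM was 6071 to 6593 CPM in unprimed and 5308 to 5731 CPM in primed libraries, without overlap, and was called lower by priming both without and with CPT (log2 fold changes of -0.19 and -0.18, each with an adjusted p under 0.05 in edgeR). COL1A1 was scarce, at 0.0477 to 0.275 CPM in unprimed and 1.11 to 2.2 CPM in primed libraries, and COL1A2 was called higher by log2 0.15 and 0.19. KRT7 lay between 0.210 and 1.33 CPM in unprimed and between 1.20 and 2.77 CPM in primed libraries, and KRT19 was called higher by log2 0.27 and 0.28. The part of these shifts in the results for the 35 genes was not tested.

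The most abundant genes of the list encode enzymes of glycolysis or lactate dehydrogenase, and those given next did not pass the test in any comparison. Per kilobase of annotated exon, the mean level in Con was 1891 CPM for GAPDH, 476 CPM for ENO1, 385 CPM for TPI1, 328 CPM for ALDOA, 295 CPM for PKM, 245 CPM for PGAM1, 241 CPM for LDHA and 99.1 CPM for PGK1. The next gene in this order on the same scale was HIF1A, at 57.7 CPM per kilobase in Con. Other glycolytic enzymes lay below it, among them GPI at 46.7, PFKL at 36.3, PFKP at 30.9 and HK1 at 20.5 CPM per kilobase. Not all of these were without a call, since PFKP and the scarce ALDOC were called higher by priming. At the other end, BNIP3, PDK3 and NDRG1 had 0.460, 0.107 and 0.052 CPM per kilobase. The span between the most and the least abundant tested genes was thus far wider than any difference between the groups.

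**Figure D1:**
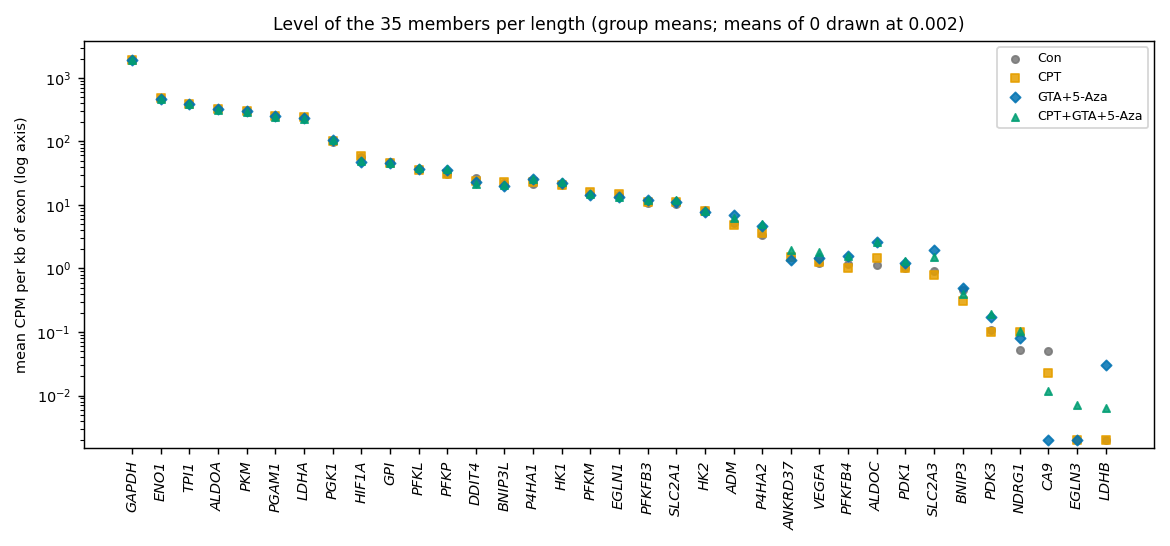
Mean level of each of the 35 genes in each of the 4 groups (n = 3 libraries a group), in CPM per kilobase of annotated exon on a log axis, in the order of the Con means. GAPDH leads at 1891 CPM per kilobase in Con, the symbols of the 4 groups lie on top of each other for the abundant enzymes, and CA9, EGLN3 and LDHB lie at or near 0, so the order of these 3 is not read.

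Priming changed a few genes of the list. After GTA+5-Aza alone, the quasi-likelihood (QL) test of edgeR, with p-values adjusted by the method of Benjamini and Hochberg (BH) over all genes tested, called 6 of the 32 tested genes higher than in Con (SLC2A3, ALDOC, P4HA2, ADM, P4HA1 and PFKP), 1 lower (HIF1A) and 25 neither. Of all 17123 genes tested in this comparison, 9.95% were called higher and 7.53% lower, against 18.8% and 3.13% of the tested members. In the presence of CPT, the same test of CPT+GTA+5-Aza against CPT called 7 higher (SLC2A3, ALDOC, P4HA2, VEGFA, PFKFB4, PFKP and PDK1) and 1 lower (HIF1A), where the background was 9.57% higher and 7.39% lower. The 5 genes SLC2A3, ALDOC, PFKP, P4HA2 and HIF1A were called in both comparisons. These compare separate libraries but share 1 fit and its estimate of the spread, so they are not independent tests. The share of all genes tested that were called in both was not computed.

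Before adjustment, 12 of the 32 had a P under 0.05 without CPT and 14 with CPT, where 29.4% and 29.3% of all genes tested did. By the thresholds for DEGs in the study, a change of more than 1.5-fold with an unadjusted P under 0.05, 2 of the 32 tested genes were DEGs after GTA+5-Aza alone (SLC2A3 and ALDOC), where 6.82% of all genes tested passed in the upward direction. In the presence of CPT 4 were DEGs (SLC2A3, ALDOC, PFKFB4 and PDK3), where the background was 6.93%. All of these were upregulated. The share of all genes tested that passed in the downward direction is not given, so this direction is not read as particular to the list. The median log2 fold change of the tested members was 0.06 without CPT and 0.08 with CPT, and that of all genes tested was 0.01 in both. Most of the changes were therefore small, and the large ones lay in few genes. Without Con replicate 2 or without Con replicate 3, the number called higher after GTA+5-Aza alone was 3. With CPT it was 4 without CPT replicate 1, without CPT replicate 3 or without CPT+GTA+5-Aza replicate 2, and the number of DEGs with CPT was 2 without CPT replicate 3.

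**Figure D2:**
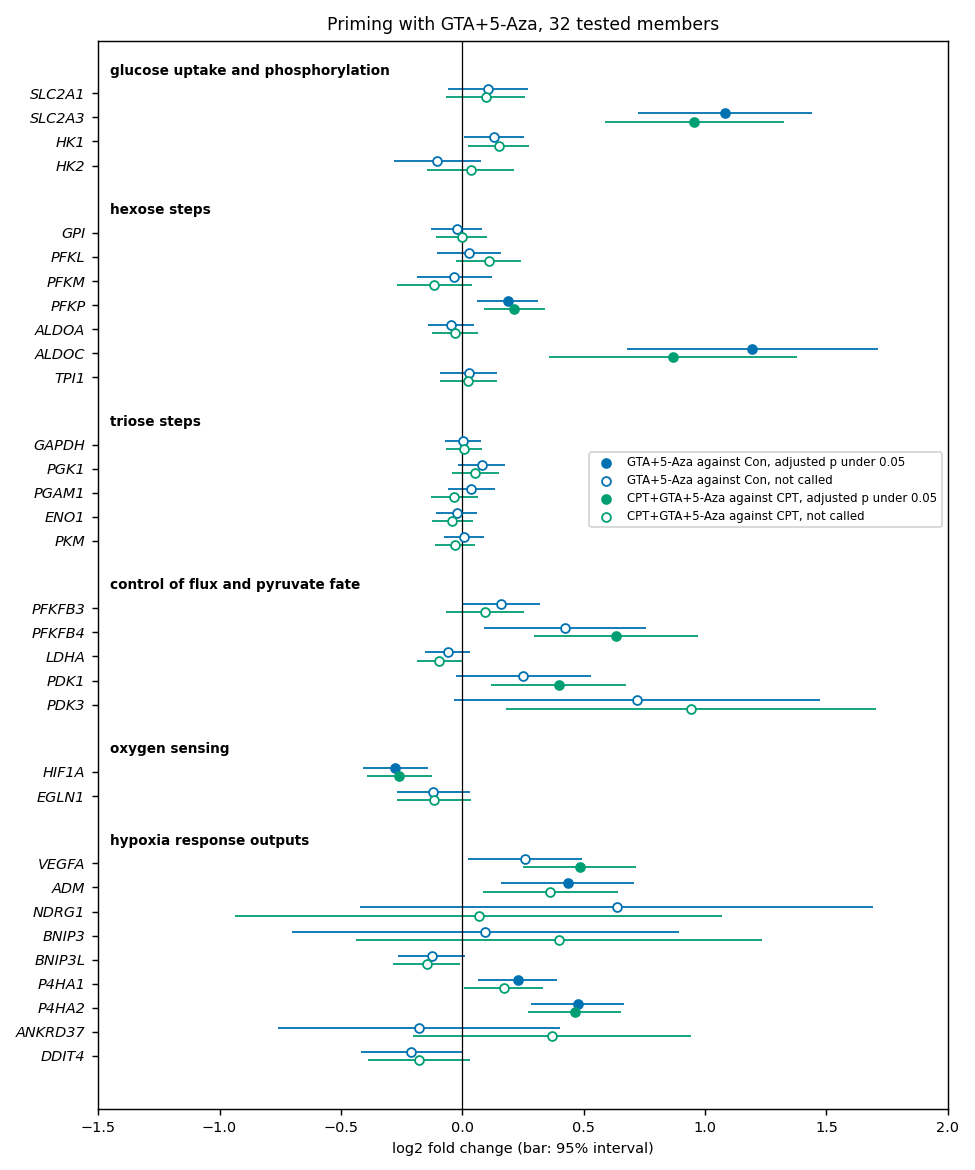
Log2 fold change (x axis) of the 32 tested genes, grouped by role, for GTA+5-Aza against Con (blue) and CPT+GTA+5-Aza against CPT (green). Bars are 95% intervals of the fit and filled symbols passed an adjusted p of 0.05. SLC2A3 and ALDOC lie near 1 in both comparisons, the enzymes from GAPDH to PKM lie at 0, and HIF1A lies left of 0.

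Among the genes of glucose uptake, priming raised the transporter SLC2A3 and not SLC2A1. SLC2A3 encodes GLUT3, a glucose transporter of high affinity best known from neurons, and lies at chr12:7919230-8019007 on the minus strand (GRCh38, GENCODE v44). Its level was 6.21, 8.15 and 5.54 CPM in the Con libraries and 17.4, 13.0 and 11.8 CPM in the GTA+5-Aza libraries. With CPT the values were 5.77, 5.41 and 5.95 CPM in unprimed cells and 11.3, 10.2 and 11.8 CPM in primed cells. Every primed library was above every unprimed one.

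The fold change of SLC2A3 was 2.12 after GTA+5-Aza alone (log2 1.08 ± 0.17 SE, adjusted p = 7.69e-05 by edgeR's QL test, BH-adjusted). In the presence of CPT it was 1.94 (log2 0.96 ± 0.18 SE, adjusted p = 0.00046 by the same edgeR test). GTA+5-Aza replicate 1 was the highest of all libraries, and SLC2A3 was called in both comparisons under each of the 19 alternatives, those without this library included. SLC2A1, which encodes the widespread transporter GLUT1, ran from 64.5 to 82.7 CPM over the 12 libraries and was not called, with log2 fold changes of 0.11 (95% interval -0.06 to 0.27) without CPT and 0.10 (-0.07 to 0.26) with CPT.

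The hexokinases trap glucose in the cell as its phosphate. HK1, the form of most tissues, ran from 137 to 143 CPM in Con and from 150 to 160 CPM after GTA+5-Aza, and from 138 to 149 CPM in CPT and 153 to 161 CPM in CPT+GTA+5-Aza. The groups did not overlap, but the log2 differences of 0.13 and 0.15 were small and the adjusted p was 0.142 and 0.0908 by edgeR's QL test, BH-adjusted. HK2, the inducible form that many tumours express, ran from 41.4 to 51.6 CPM over the 12 libraries with overlap of all groups and was not called.

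In the preparatory steps from glucose phosphate to triose phosphates, PFKP and ALDOC rose. PFKP, the platelet form of phosphofructokinase, is 1 of 3 genes for the enzyme that commits sugar to glycolysis. It had 230, 241 and 250 CPM in Con and 279, 253 and 289 CPM after GTA+5-Aza, without overlap. In CPT it had 230, 262 and 235 CPM, and in CPT+GTA+5-Aza 276, 285 and 283 CPM, again without overlap. The fold changes were 1.14 and 1.16, with adjusted p = 0.0361 and 0.0165 by edgeR's QL test, BH-adjusted. This gene was close to the threshold, and leaving out single libraries removed the call in 6 of 19 alternatives without CPT, with an adjusted p up to 0.178, and in 4 of 19 with CPT, with an adjusted p up to 0.116, by the same edgeR test. The liver form PFKL (299 to 367 CPM over the 12 libraries) and the muscle form PFKM (93.8 to 120 CPM) were not called.

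ALDOC, the aldolase form best known from brain, lies at chr17:28573115-28576948 on the minus strand (GRCh38, GENCODE v44). It was low in unprimed cells, with 3.0, 3.86 and 2.04 CPM in Con and 3.74, 5.07 and 2.51 CPM in CPT. It had 6.14, 7.21 and 7.06 CPM after GTA+5-Aza and 7.13, 7.95 and 5.63 CPM in CPT+GTA+5-Aza. All 6 primed libraries were above all 6 unprimed libraries. The fold change was 2.29 without CPT (log2 1.20 ± 0.25 SE, adjusted p = 0.00139) and 1.82 with CPT (log2 0.87 ± 0.25 SE, adjusted p = 0.0158) by edgeR's QL test, BH-adjusted. With CPT the call was lost without CPT replicate 1, without CPT replicate 3 or without CPT+GTA+5-Aza replicate 2, with an adjusted p up to 0.0854 by the same edgeR test. An antisense gene overlaps 11.3% of the exon bases of ALDOC, and reads of the pair cannot be told apart without a stated strand setting. ALDOA, the abundant aldolase of most cells, ran from 1169 to 1283 CPM and was not called.

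The promoter sequences of the aldolase genes are shown because only 1 of them changed. Both are RefSeq sequences of GRCh38.p14, 250 bases before to 50 after the start of transcription, written 5′ to 3′ on the strand of the gene, with each match to ACGTG or GCGTG on either strand in capitals. On the opposite strand these read CACGT and CACGC, and the palindrome CACGTG counts as a match on each strand.
ALDOA promoter, chr16:30065510-30065809, plus strand: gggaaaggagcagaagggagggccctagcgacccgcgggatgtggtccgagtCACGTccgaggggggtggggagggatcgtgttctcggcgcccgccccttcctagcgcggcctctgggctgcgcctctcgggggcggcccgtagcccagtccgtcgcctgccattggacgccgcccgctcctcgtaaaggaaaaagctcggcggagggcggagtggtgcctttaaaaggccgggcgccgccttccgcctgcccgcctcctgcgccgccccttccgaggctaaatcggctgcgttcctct
ALDOC promoter, chr17:28576846-28577145, minus strand: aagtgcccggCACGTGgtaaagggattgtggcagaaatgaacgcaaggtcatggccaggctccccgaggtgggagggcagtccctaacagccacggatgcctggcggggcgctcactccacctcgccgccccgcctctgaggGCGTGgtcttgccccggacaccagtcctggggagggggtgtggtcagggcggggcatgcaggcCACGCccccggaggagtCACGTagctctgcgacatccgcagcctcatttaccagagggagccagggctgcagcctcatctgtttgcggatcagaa
The ALDOC window held 5 matches and 19 CG dinucleotides, and the ALDOA window 1 match and 35 CG dinucleotides. Neither GPI, which isomerises glucose phosphate (461 to 507 CPM over the 12 libraries), nor TPI1, which interconverts the triose phosphates (925 to 1111 CPM), was called in any comparison.

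The 5 enzymes from GAPDH to PKM, which turn triose phosphate into pyruvate and yield the ATP of the chain, varied little between libraries. GAPDH had 4503, 4660 and 4432 CPM in Con, 4568, 4654 and 4555 CPM in CPT, 4463, 4501 and 4658 CPM in GTA+5-Aza, and 4588, 4690 and 4567 CPM in CPT+GTA+5-Aza. The ranges of all 4 groups overlapped, and the coefficient of variation over the 12 libraries was 1.84%. Its log2 fold change with priming was 0.00 (95% interval -0.07 to 0.08) without CPT and 0.01 (-0.07 to 0.08) with CPT.

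Over these 5 enzymes and both priming comparisons, the log2 fold changes ran from -0.04 to 0.08, and the lowest and highest limits of the 95% intervals were -0.13 and 0.18. ENO1 ran from 2383 to 2636 CPM, PKM from 2427 to 2649 CPM, PGAM1 from 599 to 659 CPM and PGK1 from 527 to 588 CPM over the 12 libraries. In each comparison the primed libraries of PGK1 lay above the unprimed libraries, by log2 0.08 and 0.05, but the gene was not called. A gene annotated opposite GAPDH, ENSG00000269968, held 29.1% to 31.9% of the reads of the pair, and with no strand setting stated the assignment of reads between them is uncertain.

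Of the 6 genes that set the rate of glycolysis or the fate of pyruvate, 5 were tested. After GTA+5-Aza alone 0 of these were called, and in the presence of CPT 2 were called higher (PFKFB4 and PDK1). Of all genes tested, 9.95% and 9.57% were called higher in these comparisons. With 5 genes tested, the counts are not read as a result for the set. PFKFB4 makes and breaks down the sugar bisphosphate that activates phosphofructokinase, and lies at chr3:48517684-48562015 on the minus strand (GRCh38, GENCODE v44). It had 6.31, 8.10 and 6.90 CPM in Con and 10.2, 8.81 and 9.65 CPM in GTA+5-Aza. In CPT it had 6.49, 6.39 and 5.62 CPM, and in CPT+GTA+5-Aza 9.61, 9.82 and 9.31 CPM. The primed and unprimed libraries did not overlap with or without CPT.

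For PFKFB4 the fold change was 1.34 without CPT (adjusted p = 0.0731) and 1.55 with CPT (adjusted p = 0.0079) by edgeR's QL test, BH-adjusted. These changes were not shown to differ, since no gene of the list was called in the test of the difference. PFKFB3, its more abundant relative, ran from 60.7 to 75.4 CPM and was not called. The PFKFB4 promoter is printed in the same form as the aldolase promoters, because this enzyme rose while PFKFB3 was not called.
PFKFB4 promoter, chr3:48556754-48557053, minus strand: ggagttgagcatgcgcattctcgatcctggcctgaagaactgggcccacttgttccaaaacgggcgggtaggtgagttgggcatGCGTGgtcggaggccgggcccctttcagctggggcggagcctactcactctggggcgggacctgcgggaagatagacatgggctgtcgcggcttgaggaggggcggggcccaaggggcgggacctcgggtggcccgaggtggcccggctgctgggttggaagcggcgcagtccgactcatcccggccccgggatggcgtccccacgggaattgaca
This window held 1 match to the element, a GCGTG on the strand of the gene, and 24 CG dinucleotides. The PFKFB3 window, which is not printed, held 2 matches and 31 CG dinucleotides.

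PDK1 and PDK3 encode kinases that switch off pyruvate dehydrogenase and so keep pyruvate from the mitochondrial cycle. PDK1 had 17.9, 12 and 15.1 CPM in Con and 18.6, 17.3 and 17.6 CPM in GTA+5-Aza, which overlapped. It had 15.2, 14.1 and 15.7 CPM in CPT and 18.2, 19.8 and 21.3 CPM in CPT+GTA+5-Aza, which did not. The fold change with CPT was 1.32 (adjusted p = 0.0436 by edgeR's QL test, BH-adjusted), and this call was lost in 10 of 19 alternatives, with an adjusted p up to 0.159 by the same edgeR test. PDK3 was low, at 13 to 84 counts per library, and its fold changes of 1.65 and 1.92 did not pass (adjusted p = 0.192 and 0.0816 by edgeR's QL test, BH-adjusted).

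Lactate dehydrogenase interconverts pyruvate and lactate, and almost all reads of its genes LDHA and LDHB were of LDHA. LDHA ran from 1310 to 1481 CPM over the 12 libraries, with log2 fold changes of -0.06 (95% interval -0.15 to 0.03) without CPT and -0.09 (-0.19 to -0.00) with CPT, and was not called. LDHB had 0 counts in 10 of 12 libraries, 5 counts in GTA+5-Aza replicate 1 and 1 count in CPT+GTA+5-Aza replicate 2. No fold is given for LDHB because both groups of each comparison were at or near the floor. Both promoters are printed in the same form, since the genes encode subunits of the same enzyme but LDHA was abundant and LDHB at or near the floor.
LDHA promoter, chr11:18394313-18394612, plus strand: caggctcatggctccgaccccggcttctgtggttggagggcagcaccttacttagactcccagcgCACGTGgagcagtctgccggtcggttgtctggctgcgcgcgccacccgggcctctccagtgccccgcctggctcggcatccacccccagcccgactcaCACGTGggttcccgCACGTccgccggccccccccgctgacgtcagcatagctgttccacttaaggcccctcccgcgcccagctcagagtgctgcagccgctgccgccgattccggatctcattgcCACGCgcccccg
LDHB promoter, chr12:21657793-21658092, minus strand: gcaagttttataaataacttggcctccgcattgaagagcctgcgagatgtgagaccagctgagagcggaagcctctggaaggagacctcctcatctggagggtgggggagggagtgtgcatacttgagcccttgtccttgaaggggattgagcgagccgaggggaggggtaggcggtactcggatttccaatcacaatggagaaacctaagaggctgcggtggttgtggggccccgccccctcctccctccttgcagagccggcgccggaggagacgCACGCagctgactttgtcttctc
The LDHA window held 6 matches to the element and 29 CG dinucleotides, and the LDHB window 1 match and 14 CG dinucleotides.

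HIF1A, which encodes the oxygen-regulated subunit of the transcription factor, was the only tested member called lower by priming. It lies at chr14:61695513-61748259 on the plus strand (GRCh38, GENCODE v44). It had 312, 277 and 303 CPM in Con and 238, 258 and 241 CPM in GTA+5-Aza. In CPT it had 289, 277 and 331 CPM, and in CPT+GTA+5-Aza 256, 251 and 242 CPM. Every primed library was below every unprimed one.

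The log2 fold change of HIF1A was -0.28 ± 0.06 SE without CPT (fold 0.826, adjusted p = 0.00359) and -0.26 ± 0.06 SE with CPT (fold 0.836, adjusted p = 0.00606) by edgeR's QL test, BH-adjusted. Both calls held under each of the 19 alternatives. Other annotated genes, HIF1A-AS1 among them, overlap 11.3% of its exon bases. The HIF1A promoter is printed in the same form because this gene moved against most of the others that changed.
HIF1A promoter, chr14:61695263-61695562, plus strand: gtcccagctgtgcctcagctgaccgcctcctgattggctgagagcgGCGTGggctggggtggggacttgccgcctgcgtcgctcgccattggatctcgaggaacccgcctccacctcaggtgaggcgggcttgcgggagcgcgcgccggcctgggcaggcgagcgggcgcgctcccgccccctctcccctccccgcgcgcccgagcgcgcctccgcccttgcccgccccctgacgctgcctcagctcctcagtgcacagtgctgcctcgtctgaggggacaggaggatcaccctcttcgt
This window held 1 match and 31 CG dinucleotides. Of the prolyl hydroxylases, EGLN1 ran from 69.3 to 82.0 CPM and was not called, with log2 fold changes of -0.12 in both comparisons (95% intervals -0.27 to 0.03). EGLN3 had 3 counts in CPT+GTA+5-Aza replicate 1 and 0 in the other 11 libraries.

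Of the 10 hypoxia response outputs, 9 were tested. After GTA+5-Aza alone 3 were called higher (ADM, P4HA1 and P4HA2), where 9.95% of all genes tested were. In the presence of CPT 2 were called higher (VEGFA and P4HA2), against a background of 9.57%. With 9 genes tested, these counts are not read as a result for the outputs as a set. The calls of ADM and P4HA1 were lost under some alternatives, given below. P4HA1 and P4HA2 encode catalytic subunits of the collagen prolyl hydroxylase, which stabilises the collagen triple helix. P4HA2 had 34.6, 31.8 and 37.2 CPM in Con and 51.0, 44.9 and 48.2 CPM in GTA+5-Aza. In CPT it had 35.5, 33.9 and 40.1 CPM, and in CPT+GTA+5-Aza 51.7, 49.3 and 49.8 CPM.

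The 6 primed libraries were all above the 6 unprimed ones for P4HA2. Its fold change was 1.39 without CPT (log2 0.47 ± 0.09 SE, adjusted p = 0.000691) and 1.38 with CPT (log2 0.46 ± 0.09 SE, adjusted p = 0.000937) by edgeR's QL test, BH-adjusted, and it was called under every one of the 19 alternatives in both. P4HA1 had 65.9, 63.7 and 71.2 CPM in Con and 79.7, 81.5 and 74.1 CPM in GTA+5-Aza, a fold change of 1.17 (adjusted p = 0.0449 by edgeR's QL test, BH-adjusted). This call was lost in 11 of 19 alternatives, with an adjusted p up to 0.156 by the same edgeR test, and with CPT the fold change of 1.13 did not pass (adjusted p = 0.147 by the same edgeR test).

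VEGFA and ADM encode secreted factors that act on blood vessels. VEGFA had 17.8, 17.7 and 17.8 CPM in Con, 17.9, 19.5 and 18.2 CPM in CPT, 21.1, 19.1 and 23.7 CPM in GTA+5-Aza, and 25.1, 27.4 and 25.2 CPM in CPT+GTA+5-Aza. Its level was thus highest in the cells given all agents, whose libraries did not overlap with those of any other group. The fold change with priming was 1.20 without CPT (adjusted p = 0.126) and 1.40 with CPT (adjusted p = 0.00369) by edgeR's QL test, BH-adjusted. The test of the difference between these changes gave log2 0.23 ± 0.16 SE and an unadjusted P of 0.173 by edgeR's QL test, so the change with CPT was not shown to be larger.

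ADM had 12.9, 11.8 and 11.3 CPM in Con and 15.6, 16.7 and 16.3 CPM in GTA+5-Aza, without overlap. In CPT it had 11.2, 10.2 and 12.3 CPM and in CPT+GTA+5-Aza 13.8, 13.2 and 16.2 CPM, also without overlap. The fold changes were 1.35 (adjusted p = 0.0234) and 1.29 (adjusted p = 0.0661) by edgeR's QL test, BH-adjusted, and the first was lost in 5 of 19 alternatives, with an adjusted p up to 0.102 by the same edgeR test.

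Several outputs often used as hypoxia markers were scarce or not called. CA9, the membrane carbonic anhydrase, had 3 counts in Con replicate 2, 2 in Con replicate 3, 2 in CPT replicate 3, 1 in CPT+GTA+5-Aza replicate 2 and 0 elsewhere. ARHGEF39, on the opposite strand, overlaps 35.7% of the exon bases of CA9, and UFSP2 40.3% of those of ANKRD37, so their counts are uncertain. NDRG1, a stress-responsive gene, had 9 to 31 counts per library, and BNIP3, a mitochondrial protein of cell death and mitophagy, had 12 to 42. The 42 pseudogenes of BNIP3 in the count tables held 67.8% of the reads of gene and copies, so its level is uncertain. BNIP3L, a relative of BNIP3, ran from 81.0 to 97.9 CPM, ANKRD37 from 2.25 to 4.96 CPM and DDIT4, an inhibitor of mTOR signalling, from 42.0 to 59.5 CPM, and none of these was called. In each comparison the primed libraries of BNIP3L lay below the unprimed libraries, with log2 fold changes of -0.13 and -0.15 and adjusted p = 0.218 and 0.145 by edgeR's QL test, BH-adjusted.

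**Figure D3:**
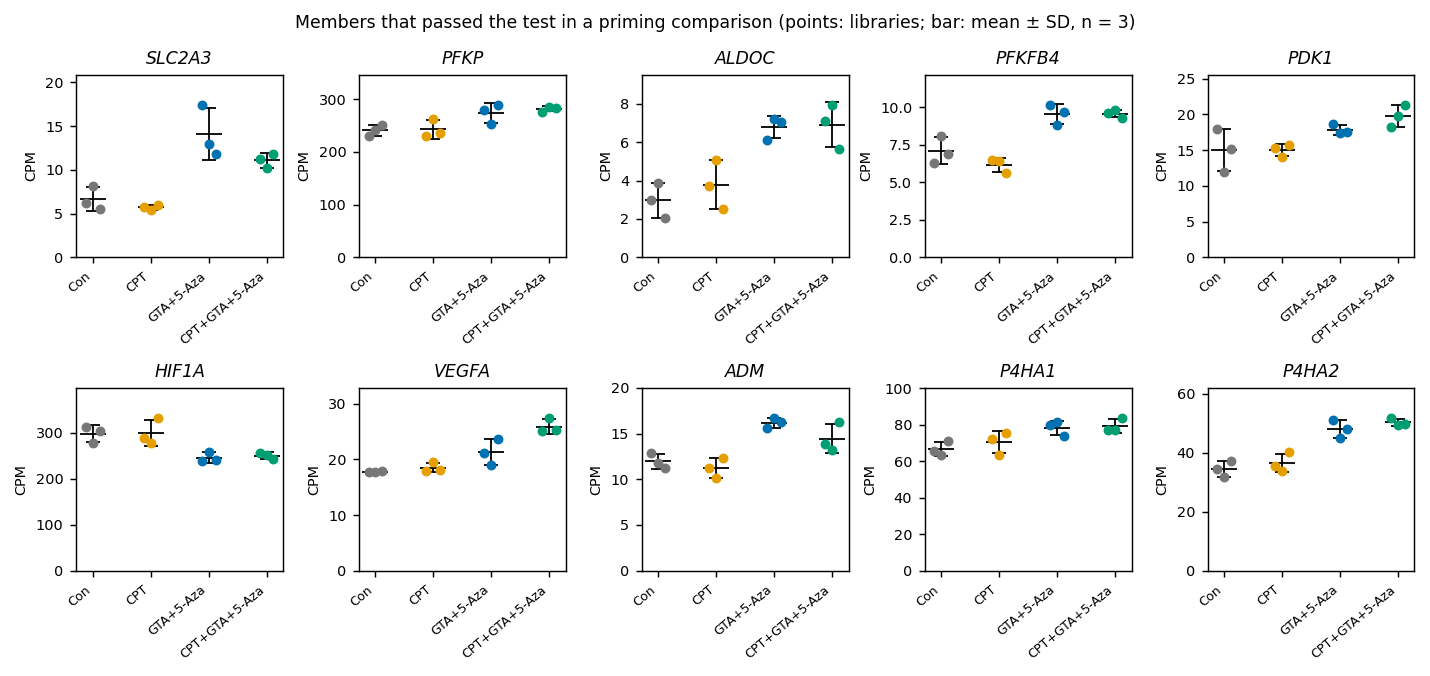
Level in CPM (y axis, from 0) of the 10 genes called in at least 1 priming comparison, with 1 point per library in each of the 4 groups and bars for mean ± SD (n = 3). SLC2A3 and ALDOC were low and lay higher in all 6 primed libraries than in the 6 unprimed ones, HIF1A was below every unprimed library in all 6 primed libraries, and VEGFA was highest in CPT+GTA+5-Aza at 25.1 to 27.4 CPM.

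Counted by separation of the libraries, 11 of the 32 tested genes lay higher without overlap after GTA+5-Aza alone and 2 lower, where 18.1% and 16% of all genes tested did so. With CPT, 12 lay higher and 4 lower, against a background of 16.4% and 14.4%. The genes that were separated in both were SLC2A3, HK1, PFKP, ALDOC, PGK1, PFKFB4, VEGFA, ADM, P4HA1 and P4HA2 upward and HIF1A and BNIP3L downward. A background share for separation in both was not computed.

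CPT alone did not change any gene of the list at an adjusted p of 0.05. In CPT against Con, edgeR's QL test called 0 of the 32 tested genes after adjustment, where 0% of all genes tested were called, and 0 had an unadjusted P under 0.05, against 4.28% of all genes tested. DESeq2 also called 0 of the 32, and 0 passed the DEG thresholds, where 1.83% of all genes tested did. The number of DEGs was 1 without Con replicate 2, without Con replicate 3 or without CPT replicate 3. The smallest P was that of NDRG1, at 0.0864 by edgeR's QL test, with 10, 9 and 19 counts in Con and 28, 23 and 16 in CPT. For SLC2A3, the log2 fold change with CPT was -0.22 (95% interval -0.59 to 0.16) and for HIF1A 0.01 (-0.12 to 0.15).

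In primed cells, CPT+GTA+5-Aza against GTA+5-Aza gave 0 called of 32 by edgeR's QL test and 0 by DESeq2, again with 0% of all genes tested called, and 0 DEGs against a background of 1%. Of the 32, 1 had an unadjusted P under 0.05, where 2.71% of all genes tested did. This was VEGFA, with a fold change of 1.22 and an unadjusted P of 0.0182 by edgeR's QL test. SLC2A3 had a log2 fold change of -0.34 (95% interval -0.69 to 0.00) in that comparison. The test of whether priming acted differently with CPT called 0 of 32 by edgeR's QL test, 0 by DESeq2 and 0 at an unadjusted P under 0.05 by edgeR, against a background of 0% called and 2.63% at the unadjusted threshold.

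Several enzymes of the list have a close relative in it, and the ratio of their counts within a library does not depend on its depth. It was compared for 11 pairs between primed and unprimed cells, with an exact two-sided permutation test over libraries within the strata without and with CPT and adjustment over the pairs. Of the 11 pairs, 8 passed an adjusted p of 0.05, but LDHB/LDHA and EGLN3/EGLN1 did so on counts of 0 in 10 and 11 libraries, where the ratio is set by the 0.5 added to the counts, and they are not read. Of the other 9 pairs, 6 passed. These ratios use the same counts as the comparisons above and are not independent of them. The share of pairs outside the list that would pass was not computed, so these counts are not read as particular to the list.

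ALDOC supplied 0.163% to 0.393% of the reads of ALDOC and ALDOA in unprimed libraries and 0.454% to 0.647% in primed libraries (log2 ratio higher by 1.12, exact permutation p = 0.005, the smallest possible, adjusted p = 0.011). SLC2A3 supplied 6.73% to 9.99% of the reads of SLC2A3 and SLC2A1 in unprimed and 11.5% to 19.2% in primed libraries (log2 0.92, adjusted p = 0.011 by the exact permutation test). The shares did not overlap in these pairs, although ALDOA and SLC2A1 still held most reads in every library.

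PFKFB4 supplied 8.03% to 10.1% of the PFKFB4 and PFKFB3 reads in unprimed libraries and 10.6% to 12.3% in primed ones (log2 0.40, adjusted p = 0.011 by the exact permutation test). P4HA2 supplied 32.9% to 34.8% of the P4HA2 and P4HA1 reads in unprimed libraries and 35.5% to 40.1% in primed ones (log2 0.27, adjusted p = 0.011 by the exact permutation test). PFKP against PFKL rose by log2 0.14 and HK2 against HK1 fell by 0.18 on the log2 scale (adjusted p = 0.0157 for each by the exact permutation test), with overlapping shares.

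The ratios of PFKM to PFKL, PDK3 to PDK1 and BNIP3L to BNIP3 did not pass (adjusted p = 0.11, 0.0917 and 0.11 by the exact permutation test). Within the libraries without CPT or within those with CPT, 3 against 3 libraries cannot give a P below 0.1.

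**Figure D4:**
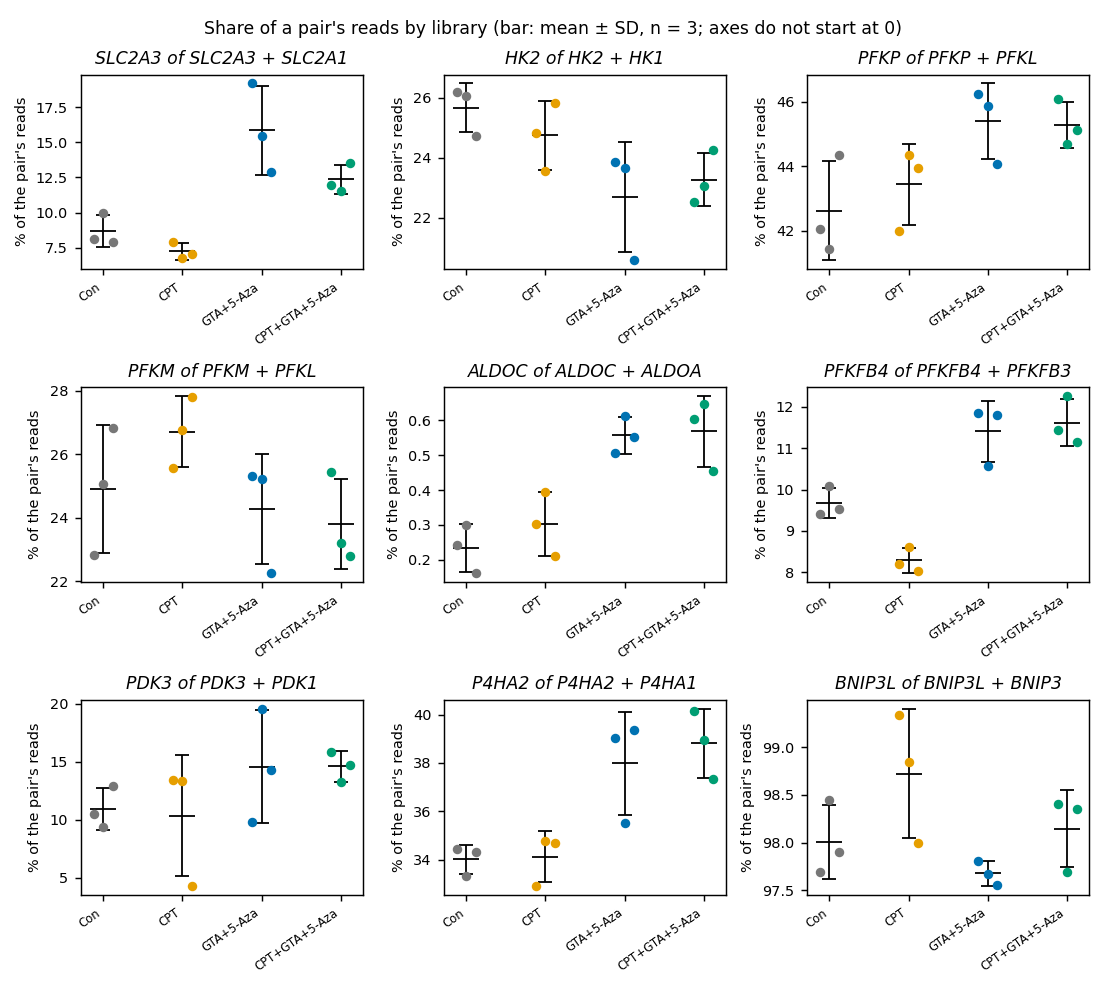
Share of the reads of a pair of related genes (y axis, percent, not from 0) that came from the first gene, with 1 point per library in each of the 4 groups and bars for mean ± SD (n = 3), for the 9 pairs without a count of 0. The primed libraries lie above the unprimed ones without overlap for SLC2A3, ALDOC, PFKFB4 and P4HA2.

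The ACGTG or GCGTG element was common in promoters of the list whether or not the gene changed. RefSeq windows were matched for 31 of the 35 genes, and BNIP3L, NDRG1, SLC2A3 and VEGFA had none. At least 1 match was present in 25 of 31 windows (80.6%), against 48.4% of 35116 promoter windows of the same length, and the median number of CG dinucleotides was 31 against 14. For the list 1 window was kept per gene, whereas the 35116 can hold several starts of a gene. Both elements contain a CG, and the sets were not matched for CG number. The difference in shares is therefore not read as enrichment of the element. Of the 8 genes called in a priming comparison that had a window, 6 held a match, and of the 23 not called 19 did. Windows lay at the start of the canonical transcript for 24 of 31 genes, and those of PFKP and P4HA2 did not. A match is a description of the letters and not a site.

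Other genes of glycolysis and the hypoxia response, 86 in a hand-written list, gave 69 tested genes. After GTA+5-Aza alone 7 of the 69 were called higher and 6 lower by edgeR's QL test, BH-adjusted, and in the presence of CPT 11 higher and 6 lower, to be read against the 9.95% and 7.53% without CPT and the 9.57% and 7.39% with CPT that hold for all genes tested. The median of their log2 fold changes was 0.03 with and without CPT.

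The brain form of enolase, ENO2, changed while the abundant ENO1 of the list was not called. ENO2 had 32.6, 34.5 and 35 CPM in Con and 67.0, 70.5 and 69.9 CPM in GTA+5-Aza. In CPT it had 40.7, 36.4 and 30.4 CPM, and in CPT+GTA+5-Aza 70.3, 74.5 and 74.0 CPM. The fold change was 2.03 in both comparisons, with adjusted p = 1.77e-08 and 1.4e-08 by edgeR's QL test, BH-adjusted, and the primed and unprimed libraries did not overlap.

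Among the other glycolysis genes, MLXIPL, a glucose-responsive transcription factor, rose 1.84-fold and 1.83-fold without and with CPT, SLC16A3, a lactate exporter, 1.33-fold and 1.27-fold, PDP1, a phosphatase that reactivates pyruvate dehydrogenase, 1.63-fold and 1.57-fold, and PGM1, which links glycogen to glucose phosphate, 1.16-fold and 1.25-fold. Several of these calls were lost under alternatives: SLC16A3 with CPT in 4 of 19 (adjusted p up to 0.144), PDP1 in 1 without and 4 with CPT (up to 0.0843) and PGM1 without CPT in 6 (up to 0.147), all by edgeR's QL test, BH-adjusted. DLD, a subunit of pyruvate dehydrogenase and related complexes, fell to 0.847 and 0.834 of its unprimed level, calls that were lost in 4 of 19 alternatives without CPT and 1 with CPT. PDP2, another phosphatase of pyruvate dehydrogenase, fell to 0.708 of its level in Con and was not called with CPT (0.86).

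Among the other hypoxia genes, PPFIA4 rose 2.31-fold and 1.71-fold, and ANGPTL4, a lipase inhibitor, rose 1.63-fold with CPT and was not called without it (1.34-fold). GBE1, the glycogen branching enzyme, fell from 96.5 ± 4.23 to 62.8 ± 1.1 CPM (SD, n = 3) without CPT and from 95.1 ± 2.78 to 67.1 ± 3.55 CPM with CPT. The histone demethylase KDM4B fell to 0.736 and 0.683 of its unprimed level, CITED2, which competes with HIF1A for a coactivator, to 0.823 and 0.793, and RSBN1 to 0.774 and 0.729. The RSBN1 call without CPT was lost in 4 of 19 alternatives, with an adjusted p up to 0.128 by edgeR's QL test, BH-adjusted.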

How the data were processed

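Gene expression was measured by RNA-seq in 12 MiaPaca2 libraries, 3 for each of 4 groups named by the sample labels, and the paper describes independent samples. The authors trimmed 150 bp paired reads with Trim Galore, aligned them with HISAT2 2.2.1 to GRCh38 and used HTSeq to count them, and deposited these whole-number counts per gene unscaled. The annotation release and the strand setting are not given in the sources used here. Symbols, lengths and coordinates came from GENCODE v44 (GRCh38), which holds 52181 of 63677 identifiers, and promoters from RefSeq (GRCh38.p14).

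In R 4.3.3, filterByExpr of edgeR 4.0.16 left 17123 genes, and glmQLFit and glmQLFTest were applied to TMM-scaled counts of all 12 libraries in 1 fit (common dispersion 0.0101). Calls had a Benjamini-Hochberg adjusted p under 0.05. Pairs of related genes were compared by an exact permutation test of 400 relabellings, after 0.5 was added to both counts of a pair with a 0. Replicates of a group differed by 3.88 to 16.6 in chi-square per degree of freedom, and no library was therefore counted as a duplicate. The edgeR and permutation steps were tested on simulated data. Alternatives were DESeq2 1.42.0, RLE scaling or library size alone, other filters, only the groups compared, the replicate number as a block, and leaving out each library. All 35 genes are named, and of the other pathway genes those called, up to 12 a comparison by smallest p, except 1 that is not reported here. The members and lists were chosen with earlier results of these data known.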

Additional observations from a re-analysis of the deposited data

How the results depend on the processing

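DESeq2, the other scalings, the other filters and the fit of only the groups compared kept every count of called members, DEGs and other pathway genes within 1.5 times its value. Library size alone gave 8 and 9 members higher without and with CPT, and no filter on low counts 4 without CPT. With the replicate block, 6 members were called higher after GTA+5-Aza alone and 7 with CPT, and no call changed. The replicate numbers did not pair the libraries in all groups, and 6 of 12 libraries correlated best with their own number. Correlations of same-numbered libraries ran from 0.0262 to 0.420 among Con, CPT and CPT+GTA+5-Aza. Those with GTA+5-Aza libraries ran from -0.377 to 0.00651. Whether same-numbered libraries of the first 3 groups shared a batch was not tested. Leaving out 1 library at a time gave 3 to 6 members higher and 1 to 2 lower after GTA+5-Aza alone (2 without Con replicate 1, where DDIT4 was added), 4 to 8 higher and 1 lower with CPT, 2 to 3 and 2 to 4 DEGs in these comparisons, and 0 to 1 DEGs in CPT against Con. The other pathway genes called were 10 to 15 and 11 to 17, the members' median log2 fold changes 0.04 to 0.09 and 0.06 to 0.09, and the pairs of related genes past the threshold 6 to 9. With only the libraries without CPT, or only those with it, 0 pairs passed, where the smallest possible P is 0.1. Without the pairs that hold a count of 0, an alternative chosen after seeing the data, 6 pairs passed. Over the members and named genes, no direction of a called gene reversed. LDHB, EGLN3 and CA9 were too scarce for a statement on their changes. Where a library had no read of them, the limit was 3 counts. Calls of PFKP, PDK1, ADM, P4HA1, ALDOC (with CPT), SLC16A3, PDP1, PGM1, DLD and RSBN1 were lost without single libraries.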
